A study of Homo sapiens with 18 samples.

Results

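TAGLN, CCN1, CCN2, THBS1, ANKRD1, SSH1, CDC42EP3, TLN1, MTSS2 and WIPF2 are 10 human genes tied to the actin cytoskeleton, either as targets of the transcription regulators SRF and YAP or as proteins that act on actin and its adhesions. They were described in HK-2 cells, a line of kidney proximal tubule epithelial cells made immortal in culture, kept under 3 control conditions. The genes were picked by symbol because several of them had been low with ethanol in these same arrays, so their ethanol values are given as a description, without a test. Each gene was read through 1 probe set, a group of short array probes for 1 transcript region: among probe sets annotated to that gene alone, the one with the highest mean over all arrays. The array held such a probe set for all 10 genes, out of 19775 genes in all. Of the 10 genes, 9 passed a filter on low values (a log2 level above 4 on at least 3 of 18 arrays), which left 10832 genes for testing. ANKRD1 did not pass.

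The experiment belongs to a search for toxicity signatures in kidney cells and holds its vehicle and medium controls. Cells received medium alone, DMSO or ethanol for 24 h or 48 h, with 3 arrays per group and 18 in all, which the labels call biological replicates. The sample labels give the shorter time as 24 h, which is used here, whereas the series text gives 12 h. No label used here states the concentration of either solvent. In every group the cells had been plated 24 h earlier, were about 90% confluent when treatment began, and grew in a DMEM and Ham's F12 mixture with EGF, hydrocortisone, insulin, transferrin and selenite, in which the labels list no serum. HK-2 is a single immortalized line, so the replicates are cultures of 1 line and not donors.

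Actin filaments and the genes that build them are joined in a feedback loop. Free actin monomers hold the coactivator MRTF in the cytoplasm. When monomers are drawn into filaments, MRTF enters the nucleus and joins SRF on genes for actin-binding proteins such as TAGLN. Tension on filaments and adhesions also lets YAP enter the nucleus, where it works with TEAD factors on genes such as CCN1, CCN2 and ANKRD1. In kidney tubule cells, CCN2, THBS1 and TAGLN are known as genes of spreading, injury and fibrosis.

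The 18 arrays had similar signal, with 39.7% to 40.3% of probe sets above a log2 level of 4. Both arrays of ethanol replicate 3 stood apart: on the second principal component, with 30.7% of the variance, they lay at -52.3 (24 h) and -61.6 (48 h), against -21.2 to 20.5 for the other 16 arrays. Ethanol differences of the 9 genes and of the other genes named are therefore also given without both arrays where that moved them by over 1.5 times or changed their sign. Of 14 markers of tubule and other epithelial cells, 7 were above 4 in the mean of every group, among them keratins. The other 7, which include the brush border genes ANPEP, GGT1, AQP1, CUBN and LRP2, were above 4 on no array, so these cells carried the epithelial but not the brush border part of the label. CDH1, one of the 7 above 4 by mean, was below 4 on both ethanol replicate 3 arrays (2.58 and 3.77). On the other 16 arrays it was at 6.61 to 9.04. Endothelial and immune markers (9 genes) were above 4 on no array. Of 6 smooth muscle markers only ACTA2 was tested, and MYH11, DES, CNN1, LMOD1 and SYNPO2 were above 4 on no array.

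Promoter sequence was at hand for 8 of the 10 genes, all but TAGLN and CCN1. It came as RefSeq windows of 250 bases before to 50 after the start (GRCh38.p14), with more than 1 for SSH1 and CDC42EP3. They were searched on both strands for GGAATG, the core of the motif that TEAD factors bind, and for the CArG box that SRF binds. GGAATG occurred in 3 of the 8: 3 times in CCN2, 2 times in ANKRD1 and once in THBS1. Among all 35116 promoter windows of this length, 14.0% held it at least once and 0.128% held it 3 or more times. The CArG box matched in no window of these 8 genes, which leave out TAGLN, and in 1.29% of all windows. The 250 bases upstream of each of the 3 starts are shown because these genes carry the matches, with each GGAATG in capitals.
CCN2 (chr6:131951373-131951622, minus strand): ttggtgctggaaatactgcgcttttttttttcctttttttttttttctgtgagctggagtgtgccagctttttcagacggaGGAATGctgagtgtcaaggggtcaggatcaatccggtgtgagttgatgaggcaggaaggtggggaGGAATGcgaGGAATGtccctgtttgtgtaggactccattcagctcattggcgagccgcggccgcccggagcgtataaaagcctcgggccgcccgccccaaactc
ANKRD1 (chr10:90921088-90921337, minus strand): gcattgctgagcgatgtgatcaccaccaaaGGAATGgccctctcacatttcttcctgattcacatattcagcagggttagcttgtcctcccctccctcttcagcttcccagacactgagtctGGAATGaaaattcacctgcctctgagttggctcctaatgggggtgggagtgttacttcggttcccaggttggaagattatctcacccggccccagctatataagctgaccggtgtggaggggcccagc
THBS1 (chr15:39580829-39581078, plus strand): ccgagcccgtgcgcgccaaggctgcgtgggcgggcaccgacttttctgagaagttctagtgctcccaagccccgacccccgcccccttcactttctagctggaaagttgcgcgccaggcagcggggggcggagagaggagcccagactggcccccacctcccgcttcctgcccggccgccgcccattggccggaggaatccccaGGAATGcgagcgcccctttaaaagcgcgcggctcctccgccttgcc
The 3 matches of CCN2 lie 169 to 164, 104 to 99 and 95 to 90 bases before the start. These matches describe the letters of the window and do not show binding.

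TAGLN (chromosome 11, 117199294 to 117207465, GRCh38.p14) encodes transgelin, a small protein that binds and bundles actin filaments. At 24 h its log2 levels were 7.21, 4.39 and 5.72 in medium (replicates 1, 2 and 3), 6.40, 6.13 and 6.02 with DMSO, and 3.11, 2.56 and 3.34 with ethanol. At 48 h they were 3.09, 3.18 and 3.61 in medium, 3.11, 3.04 and 3.27 with DMSO, and 2.90, 3.12 and 2.91 with ethanol. The 6 arrays of medium and DMSO at 24 h were above 4 and the other 12 arrays were below it, with no overlap. The order of the group means was DMSO 24 h (6.18 ± 0.20, SD, n = 3), medium 24 h (5.78 ± 1.41), medium 48 h (3.29 ± 0.28), DMSO 48 h (3.14 ± 0.12), ethanol 24 h (3.00 ± 0.40) and ethanol 48 h (2.98 ± 0.12). Neighbours in that order overlapped except at the step of 2.48 from medium 24 h to medium 48 h. Medium replicate 2 at 24 h was the lowest of the 6 high arrays and replicate 1 the highest, which gives that group its wide SD. Ethanol was lower than medium by 2.77 ± 0.46 on the log2 scale at 24 h, a 6.83-fold lower level, where ± marks the standard error of a difference. At 48 h the difference from medium was -0.31 ± 0.46. Below 4 a probe set is near background, so the sizes of these TAGLN differences are not exact. These are bulk RNA measurements, in which fewer cells with TAGLN and less TAGLN RNA per cell cannot be told apart.

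CCN1 and CCN2 encode secreted matrix proteins that bind integrins and are widely used as readouts of YAP activity. CCN2 (chromosome 6, 131948176 to 131951372) was at log2 levels of 10.03, 9.20 and 9.79 in medium, 9.83, 9.19 and 9.62 with DMSO, and 8.17, 8.56 and 8.45 with ethanol at 24 h. At 48 h the levels were 9.50, 9.12 and 9.69 in medium, 9.56, 9.16 and 9.68 with DMSO, and 9.33, 9.14 and 7.02 with ethanol. At 24 h all 3 ethanol arrays lay below the medium and DMSO arrays, whereas at 48 h ethanol replicates 1 and 2 lay within their range and replicate 3 far below it. The CCN2 difference between ethanol and medium was -1.28 ± 0.45 at 24 h and -1.31 ± 0.26 without both ethanol replicate 3 arrays. At 48 h it was -0.94 ± 0.45 with all arrays and -0.20 ± 0.26 without those 2, so its size at 48 h rested on 1 array. CCN2 group means ran from 9.68 ± 0.43 (medium 24 h) down to 8.39 ± 0.21 (ethanol 24 h), and all neighbours in the order overlapped.

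CCN1 (chromosome 1, 85580761 to 85583950) varied more between replicates than between groups. Its log2 levels at 24 h were 12.11, 11.40 and 12.34 in medium, 11.93, 11.36 and 11.89 with DMSO, and 10.81, 11.20 and 12.11 with ethanol. Those at 48 h were 11.34, 11.15 and 12.08 in medium, 11.29, 11.39 and 11.92 with DMSO, and 11.87, 11.30 and 10.47 with ethanol. Ethanol replicate 3 was the highest ethanol array at 24 h and the lowest at 48 h, and every pair of neighbouring groups overlapped. Ethanol differed from medium by -0.58 ± 0.39 at 24 h, or -0.95 ± 0.33 without replicate 3, and by -0.32 ± 0.39 at 48 h, or 0.06 ± 0.33 without it.

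THBS1 (chromosome 15, 39581079 to 39599466) encodes thrombospondin 1, a secreted adhesion protein that can activate latent TGF-beta. At 24 h its log2 levels were 9.23, 8.49 and 8.95 in medium, 8.58, 7.83 and 8.08 with DMSO, and 6.62, 6.42 and 8.19 with ethanol. The 48 h levels were 7.54, 7.38 and 7.29 in medium, 7.32, 7.26 and 6.38 with DMSO, and 7.24, 5.77 and 4.64 with ethanol. Every ethanol array was below every medium array of its time, while ethanol replicate 3 at 24 h and replicate 1 at 48 h lay inside the DMSO range. The order was medium 24 h (8.89 ± 0.37), DMSO 24 h (8.16 ± 0.38), medium 48 h (7.40 ± 0.13), ethanol 24 h (7.08 ± 0.97), DMSO 48 h (6.99 ± 0.53) and ethanol 48 h (5.89 ± 1.31). Only the step of 0.76 from DMSO 24 h to medium 48 h separated neighbouring groups without overlap. Ethanol was lower than medium by 1.81 ± 0.55 at 24 h and 1.52 ± 0.55 at 48 h, values that became -2.37 ± 0.39 and -0.89 ± 0.39 without both replicate 3 arrays.

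ANKRD1 (chromosome 10, 90912096 to 90921087) encodes a nuclear and sarcomeric ankyrin repeat protein and is a classic YAP target. Its single probe set reached at most 2.39 on any array, not above the level of 4 anywhere, so no difference is given for it.

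SSH1 (chromosome 12, 108778191 to 108857583) encodes slingshot, a phosphatase that activates the filament-severing protein cofilin. At 24 h its log2 levels were 7.36, 7.17 and 6.93 in medium, 7.26, 7.29 and 6.91 with DMSO, and 6.21, 6.13 and 6.10 with ethanol. At 48 h they were 6.89, 7.04 and 6.90, then 7.08, 7.23 and 6.77, and 6.43, 6.12 and 6.64 in the same order of treatments. All 6 ethanol arrays lay below all 12 others, and the step of 0.54 from medium 48 h (6.94 ± 0.08) to ethanol 48 h (6.40 ± 0.26) was the only one without overlap. Ethanol was lower than medium by 1.00 ± 0.16 at 24 h, a level 2.00-fold lower, and by 0.55 ± 0.16 at 48 h.

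CDC42EP3 (chromosome 2, 37641944 to 37672949) encodes an effector of the GTPase CDC42 that organises actin and septin fibres. At 24 h its log2 levels were 9.14, 9.26 and 9.63 in medium, 9.13, 9.08 and 9.32 with DMSO, and 8.30, 7.99 and 8.57 with ethanol. At 48 h they were 8.90, 8.73 and 9.04 in medium, 8.89, 8.80 and 8.80 with DMSO, and 9.51, 9.13 and 8.82 with ethanol. With ethanol CDC42EP3 was below all other arrays at 24 h, but at 48 h it overlapped both controls, with 2 of 3 arrays above all of theirs. Its difference from medium was -1.06 ± 0.18 at 24 h and 0.26 ± 0.18 at 48 h, or 0.43 ± 0.16 without replicate 3. Among the 9 genes CDC42EP3 was the only one whose mean was higher with ethanol than with medium at 48 h. Ethanol 24 h (8.29 ± 0.29) stood last in its order, 0.54 below DMSO 48 h (8.83 ± 0.05), the only neighbours without overlap.

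MTSS2 (chromosome 16, 70661204 to 70686053) encodes a protein that bends membranes and binds actin. Its log2 levels at 24 h were 5.64, 4.15 and 5.65 in medium, 5.17, 4.87 and 4.66 with DMSO, and 2.73, 2.85 and 3.39 with ethanol. At 48 h the values were 4.16, 3.82 and 4.58 in medium, 4.77, 4.11 and 4.31 with DMSO, and 2.54, 2.41 and 2.70 with ethanol. Every ethanol array was below 4 and below all 12 others, so the sizes are not exact. The mean with ethanol was 4.45-fold below that in medium at 24 h (-2.15 ± 0.34) and 3.10-fold below at 48 h (-1.63 ± 0.34). Steps without overlap lay between medium 48 h (4.19 ± 0.38) and ethanol 24 h (2.99 ± 0.35) and between ethanol 24 h and ethanol 48 h (2.55 ± 0.15).

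WIPF2 (chromosome 17, 40219304 to 40284136) encodes a partner of WASP-family proteins, which start new branches on actin filaments. Its arrays at 24 h read 9.47, 9.32 and 9.47 in medium, 9.52, 9.25 and 9.51 with DMSO, and 8.78, 8.69 and 8.84 with ethanol, as log2 levels. At 48 h they read 9.09, 9.11 and 9.27, then 9.26, 9.06 and 9.27, and 8.64, 8.50 and 8.41. The 6 ethanol arrays were again below all 12 others. The differences from medium were small but the replicates were tight: -0.65 ± 0.11 at 24 h and -0.64 ± 0.11 at 48 h, 1.57-fold and 1.56-fold lower. WIPF2 had the most steps without overlap, from medium 24 h to DMSO 48 h (0.23), from medium 48 h to ethanol 24 h (0.39) and from ethanol 24 h to ethanol 48 h (0.25).

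TLN1 (chromosome 9, 35696948 to 35732195) encodes talin, which links integrins to actin and so carries tension at adhesions. At 24 h its log2 levels were 7.61, 7.13 and 7.88 in medium, 7.43, 6.99 and 7.79 with DMSO, and 6.36, 5.55 and 6.61 with ethanol. At 48 h they were 6.93, 6.55 and 7.26 in medium, 7.21, 6.57 and 7.14 with DMSO, and 5.20, 4.70 and 5.93 with ethanol. Ethanol lay below both controls at each time without overlap, although neighbouring groups in the order of means all overlapped. The TLN1 difference from medium was -1.37 ± 0.34 at 24 h and -1.64 ± 0.34 at 48 h, and -1.59 ± 0.32 and -1.97 ± 0.32 without both replicate 3 arrays.

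**Figure D1:**
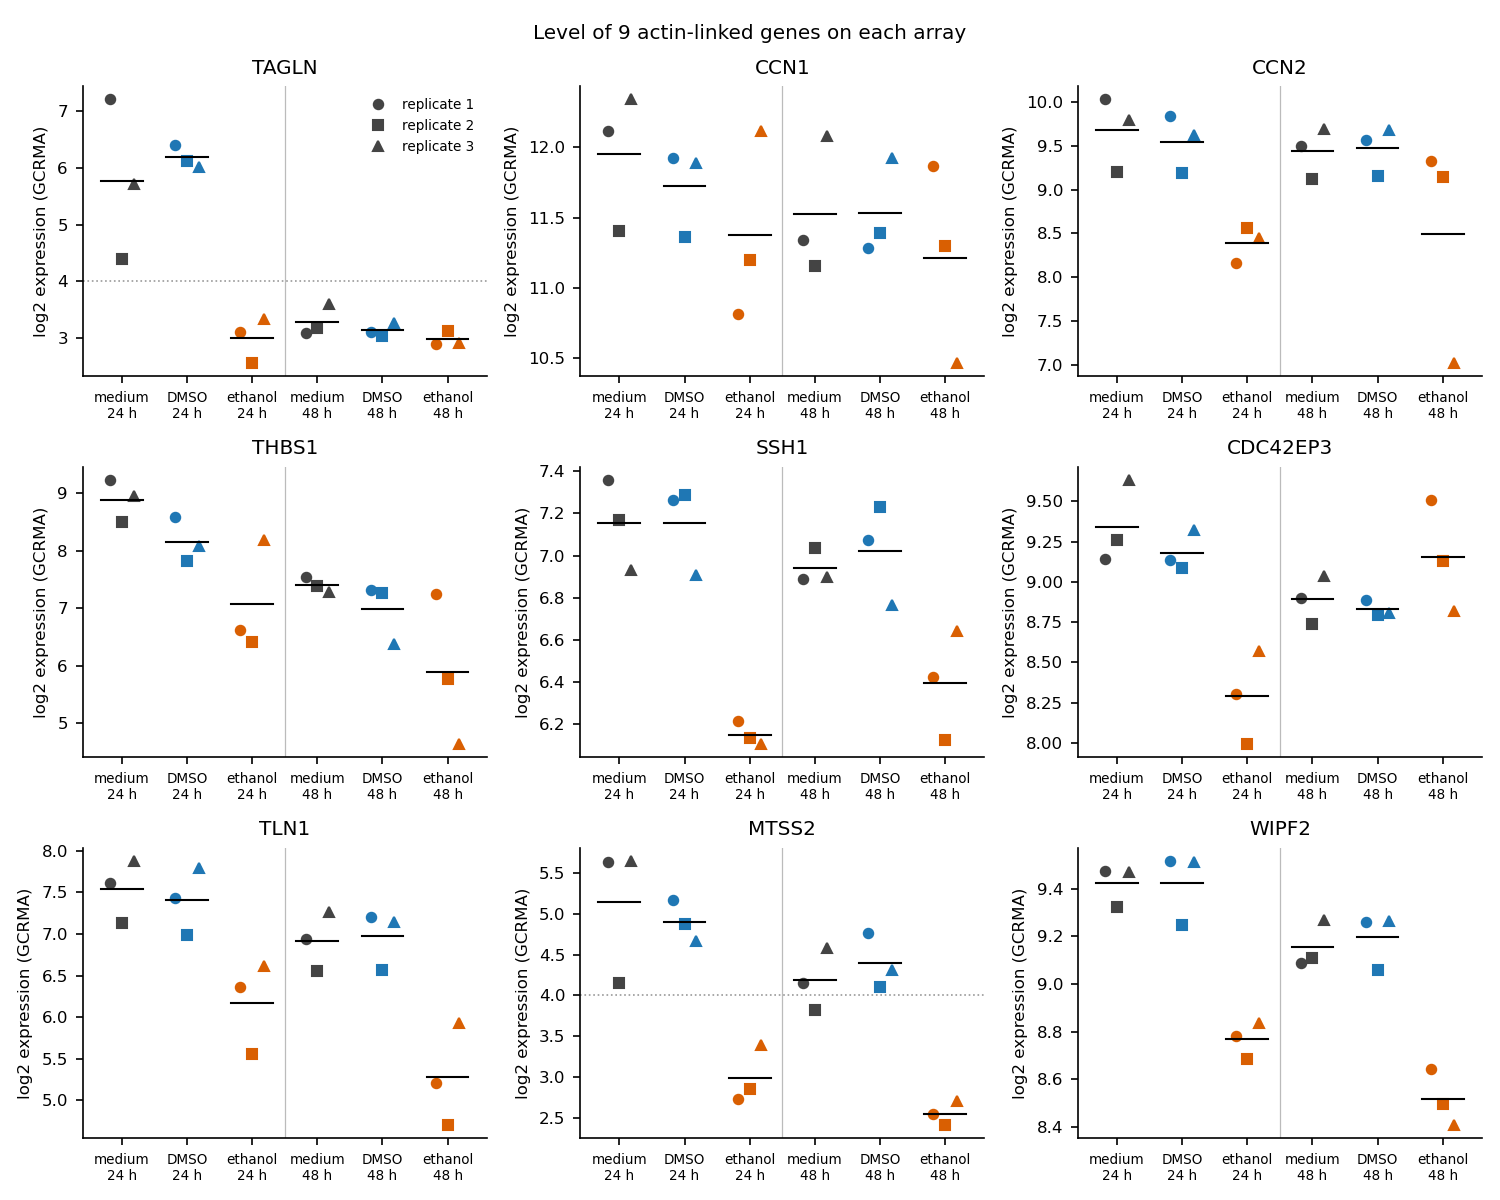
Log2 expression (GCRMA, y axis of each panel) of the 9 tested genes on each of 18 arrays, by treatment and time (x axis). Points are arrays with the replicate number as the marker shape, black bars are means of 3 arrays, and the dotted line marks the level of 4 where it falls in the panel. TAGLN was above 4 only in medium and DMSO at 24 h, whereas MTSS2, SSH1 and WIPF2 were lowest on the 6 ethanol arrays.

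Set side by side, 9 of 9 genes had a lower mean with ethanol than with medium at 24 h, beside 56.9% of all tested genes. For 8 of them the arrays of ethanol and medium did not overlap, CCN1 being the exception. Over all tested genes 8.95% were lower without overlap in that comparison. Of the 9, TAGLN, MTSS2, SSH1, CDC42EP3 and WIPF2 were among the 8 genes (0.0739%) that passed an adjusted p of 0.05 in limma there, and since they were chosen for it nothing is read from that count. The median difference of the 9 was -1.28, beside -0.04 over all tested genes. At 48 h the mean was below medium for 8 of 9 genes, beside 54.3% of all genes, and 5 (THBS1, SSH1, TLN1, MTSS2 and WIPF2) had no overlap, with 15.4% of all genes lower without overlap. The median was -0.64, beside -0.04 over all genes. SSH1, TLN1, MTSS2 and WIPF2 passed the threshold there, beside 7.47% of all genes that passed and were lower, a count from which nothing is read either. Without both ethanol replicate 3 arrays the differences from medium at 24 h and 48 h were -2.94 ± 0.54 and -0.28 ± 0.54 for TAGLN, -2.35 ± 0.38 and -1.71 ± 0.38 for MTSS2, -0.98 ± 0.17 and -0.67 ± 0.17 for SSH1, and -0.69 ± 0.12 and -0.58 ± 0.12 for WIPF2. The medium and DMSO comparisons share the ethanol arrays. Against DMSO at 24 h the differences ran from -3.18 (TAGLN) to -0.35 (CCN1), with 7 of 9 genes lower without overlap and 11.7% of all genes so. Without both ethanol replicate 3 arrays CCN1 moved from -0.35 to -0.72 ± 0.33 there and THBS1 from -1.08 to -1.64 ± 0.39. Against DMSO at 48 h they ran from -1.84 (MTSS2) to 0.32 (CDC42EP3), with 4 of 9 lower without overlap and 17.4% of all genes so. Without those 2 arrays THBS1 moved from -1.10 to -0.48 ± 0.39, CCN2 from -0.97 to -0.23 ± 0.26, CCN1 from -0.32 to 0.05 ± 0.33 and CDC42EP3 from 0.32 to 0.49 ± 0.16.

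**Figure D2:**
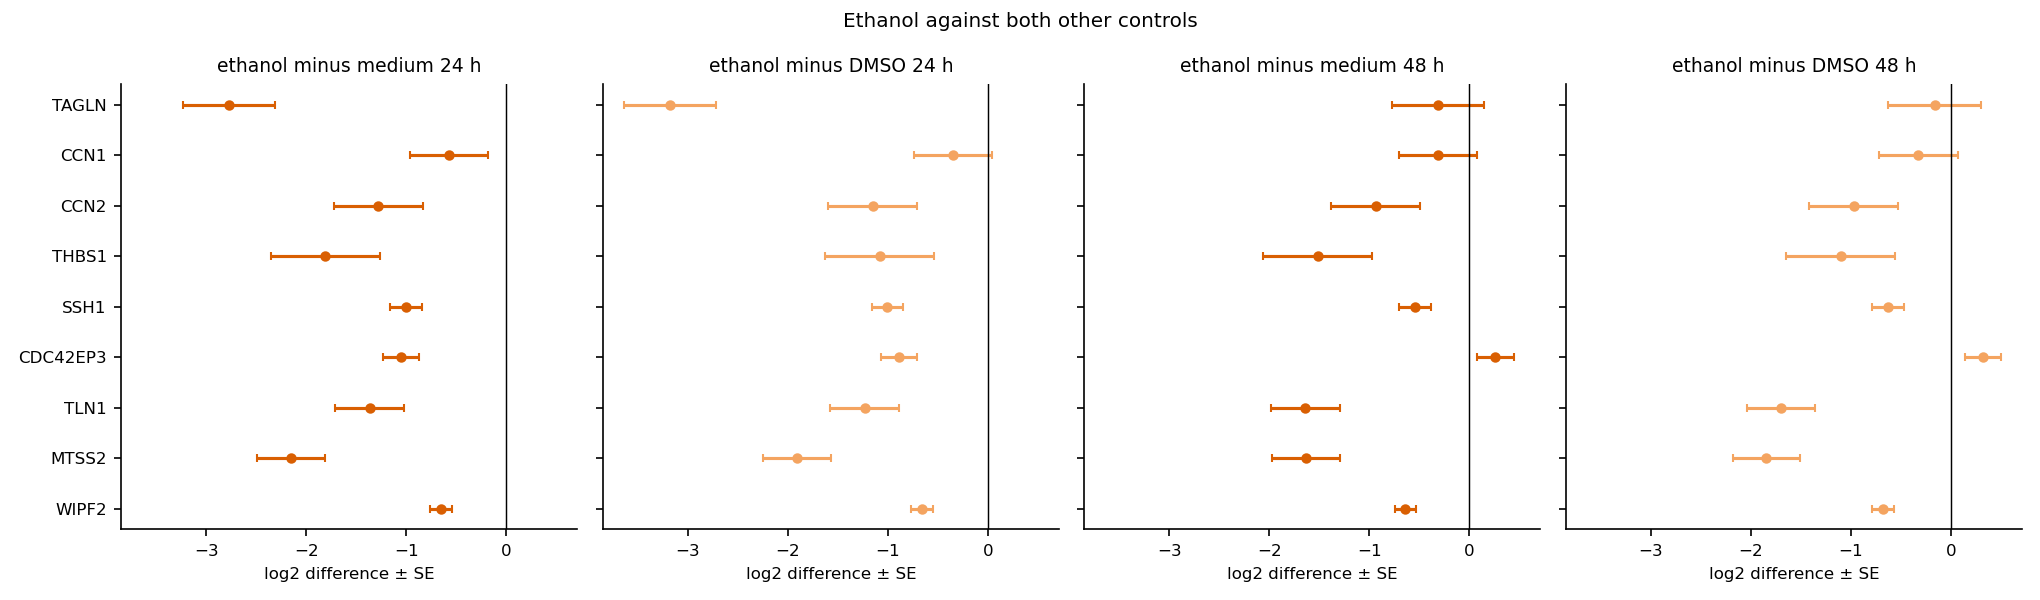
Log2 difference (x axis) of ethanol from medium and from DMSO for each of the 9 genes (y axis) at 24 h and 48 h, where points are differences of means of 3 arrays and bars are standard errors from the limma fit. TAGLN moved from -2.77 at 24 h to -0.31 at 48 h against medium, while MTSS2, TLN1 and WIPF2 stayed below 0 by more than their error at both times.

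The summed level of fibroblast markers was lower with ethanol at 24 h, where DCN, the matrix proteoglycan decorin, was the brightest of them, with a mean log2 level of 12.01 in medium and 10.99 with ethanol. Of 8 listed, COL1A1, DCN and LUM were tested and 0 passed at 24 h in limma, with 0.453 as the smallest adjusted p. At 48 h 1 of these 3 fell (adjusted p = 0.0135, limma), beside 7.47% of all genes that passed and were lower. COL3A1 reached 4.06 at most and was not tested, and COL1A2, PDGFRA, PDGFRB and THY1 were above 4 on no array. Means of the collagen genes COL3A1 (3.54 and 2.77) and COL1A2 (3.50 and 2.85) were higher with ethanol than in medium at 24 h, near background. The summed unlogged level of the list was 4692 to 6497 in medium, 4160 to 5799 with DMSO and 3106 to 3376 with ethanol at 24 h. At 48 h it was 4321 to 4620, 3910 to 4792 and 1134 to 5549. DCN was at 9.86, 9.40 and 12.21 on ethanol replicates 1, 2 and 3 at 48 h. The part of these markers in the ethanol values of TAGLN, CCN2 and THBS1 was not tested. The smooth muscle list, which would mark cells rich in TAGLN, summed to 106 to 129 in medium and 113 to 148 with ethanol at 24 h.

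DMSO against medium shows what the other solvent did to the same genes. The medium arrays were also part of the comparison on which the genes were chosen, so DMSO against medium is not independent of that choice. No difference of the 9 genes was past the threshold, and none separated the groups. At 24 h THBS1 differed most, by -0.73 ± 0.55, followed by TAGLN at 0.41 ± 0.46 and MTSS2 at -0.25 ± 0.34. The sign for THBS1 depended on the probe set, since its other 2 that passed gave 0.08 and 0.09. A further THBS1 probe set, which failed the filter on low values, was higher with DMSO without overlap, by 1.04 at 24 h and 0.155 at 48 h. Leaving out 1 array moved the TAGLN value to between -0.28 (without medium replicate 2) and 1.13 (without medium replicate 1), and that of MTSS2 to between -0.74 (without medium replicate 2) and 0.005 (without medium replicate 3). SSH1 and WIPF2 were within 0.01 of medium, with errors of 0.16 and 0.11. At 48 h the differences ran from -0.42 ± 0.55 (THBS1) to 0.21 ± 0.34 (MTSS2). In limma (two-sided, Benjamini-Hochberg over 10832 genes, adjusted p under 0.05) 0 of 9 passed at either time, as did 0 of all genes (0.0%), with adjusted p = 1.00 for each of the 9. At an unadjusted p under 0.05 there were 0 of 9 at 24 h and at 48 h, beside 204 and 53 of all genes. This fit did not use the pairing of replicate numbers, and the ethanol arrays enter its spread. With only the DMSO and medium arrays and the replicate number as a block, a fit added after seeing the data, THBS1 was at -0.73 ± 0.21 at 24 h. Its p was 0.00727 and its adjusted p 0.243 in limma. No other of the 9 was under 0.05 unadjusted there at either time. None of the 9 had groups without overlap, where 5.83% of all genes were lower and 3.58% higher in that way at 24 h, and 1.78% and 1.86% at 48 h. With standard errors of up to 0.55, these values do not show that levels were equal. The p-values measure the spread between replicates as the labels name them.

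TAGLN was lower at 48 h than at 24 h on every DMSO array, and the other 8 genes had lower means at 48 h too, by less. In DMSO the change from 24 h to 48 h was -3.05 ± 0.46 for TAGLN (8.26-fold lower), -1.17 ± 0.55 for THBS1, -0.51 ± 0.34 for MTSS2 and -0.43 ± 0.34 for TLN1. CDC42EP3 changed by -0.35 ± 0.18, WIPF2 by -0.23 ± 0.11, CCN1 by -0.19 ± 0.39, SSH1 by -0.13 ± 0.16 and CCN2 by -0.08 ± 0.45. TAGLN passed the filter on low values only through its 6 high arrays at 24 h, so its change with time is a description and no p-value is given for it. Among the other 8 genes the mean was lower for all 8, beside 51.2% of all genes, and THBS1 and CDC42EP3 had no overlap, beside 12.3% of all genes lower without overlap. In limma 0 of these 8 passed, beside 0.0% of all genes, and 2 of 8 had an unadjusted p under 0.05, beside 1105 of all genes.

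The replicate numbers paired the DMSO and medium arrays, and with the number as a block 0 of these 8 genes passed in limma, beside 2.37% of all genes. Ethanol arrays enter this test through the shared estimate of the spread. A fit of the 12 DMSO and medium arrays with the block, chosen after seeing the data, gave 4 of the 8 that fell: THBS1 (adjusted p = 0.00445), TLN1 (0.0056), CDC42EP3 (0.0253) and WIPF2 (0.0286), by limma. In that fit 28.5% of all genes passed and 15.0% fell.

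In medium alone the 5 largest changes with time were those of the same genes in the same order. The change was -2.48 ± 0.46 for TAGLN, -1.49 ± 0.55 for THBS1, -0.96 ± 0.34 for MTSS2 and -0.62 ± 0.34 for TLN1, and it lay between -0.45 and -0.21 for the other 5 genes. TAGLN, THBS1, CDC42EP3 and WIPF2 had no overlap, beside 14.4% of all genes lower in that way. The time change of the 9 genes in DMSO differed from that in medium by -0.56 ± 0.65 (TAGLN) to 0.46 ± 0.48 (MTSS2), with adjusted p = 1.00 in limma for each. The medium arrays used there were part of the choice of the genes. With ethanol TAGLN, already low at 24 h, changed by -0.03 ± 0.46, THBS1 by -1.19 ± 0.55 and TLN1 by -0.90 ± 0.34, while CDC42EP3 was higher at 48 h by 0.86 ± 0.18 without overlap, beside 14.2% of all genes higher in that way. Without both replicate 3 arrays THBS1 changed by -0.01 ± 0.42 with ethanol, CCN2 by 0.87 ± 0.29 and CCN1 by 0.57 ± 0.36, beside 0.10 ± 0.45 and -0.17 ± 0.39 with all arrays. On the probe sets used, these 3 values rested on those arrays. CDC42EP3 changed by 1.17 ± 0.18 and TAGLN by 0.18 ± 0.59 without them. The other THBS1 probe sets that passed were lower at 48 h on the remaining ethanol replicates too. The first read 6.84 and 6.42 at 24 h and 6.19 and 4.69 at 48 h. The next read 5.80 and 4.15 at 24 h and 4.65 and 2.97 at 48 h.

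**Figure D3:**
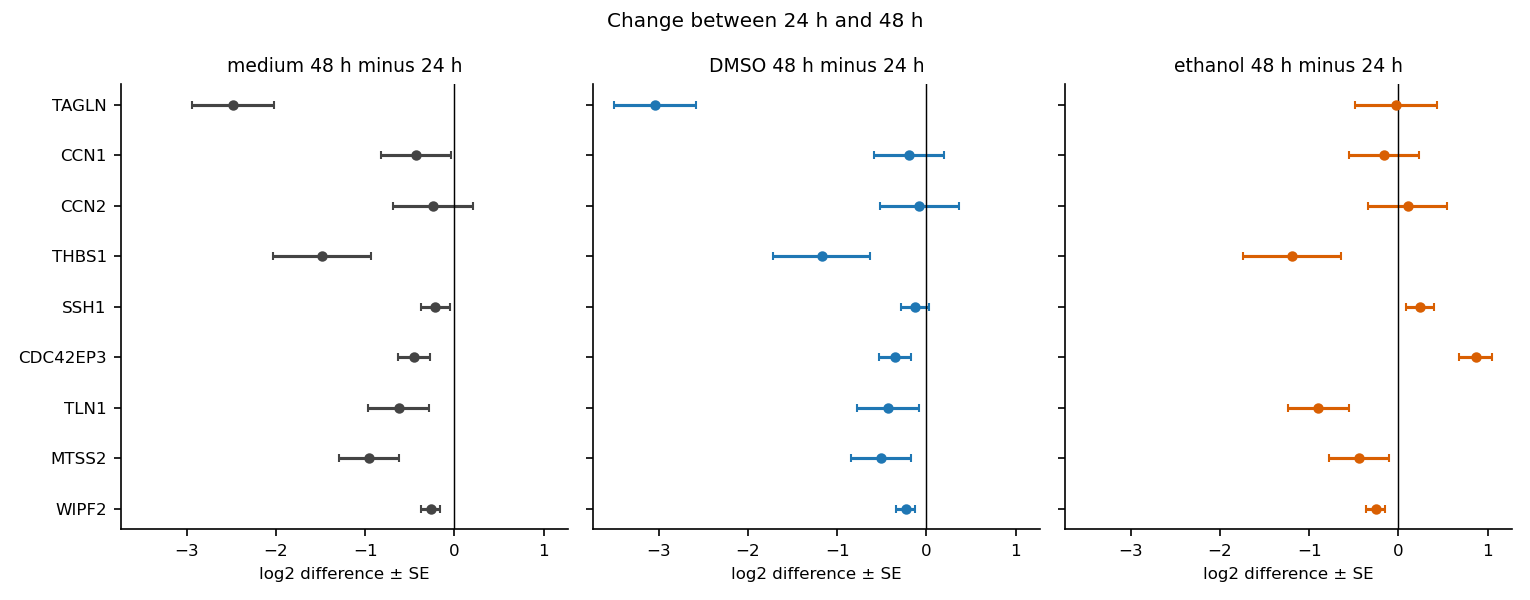
Log2 change from 24 h to 48 h (x axis) in medium, DMSO and ethanol for the 9 genes (y axis), where points are differences of means of 3 arrays and bars are standard errors from the limma fit. TAGLN changed by -2.48 in medium and -3.05 in DMSO but by -0.03 in ethanol, and CDC42EP3 by 0.86 in ethanol.

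Other probe sets of the same genes mostly gave the same sign with ethanol at 24 h and over time in medium and DMSO, and a mixed sign for DMSO against medium. The 10 genes had 32 probe sets, of which 19 passed the filter, and 6 genes had more than 1 that passed. All 19 had a lower mean with ethanol than with medium at 24 h, 17 had at 48 h, and 19 were lower at 48 h than at 24 h in DMSO. In medium 18 were lower at 48 h, and the exception was the second SSH1 probe set, higher by 0.33 without overlap where the one used gave -0.21. For DMSO against medium 9 of 19 were lower at 24 h and 10 at 48 h, and 11 of 19 were lower at 48 h than at 24 h with ethanol. The second TAGLN probe set gave -1.49 for ethanol against medium at 24 h and -1.87 for the time change in DMSO. On medium replicate 2 at 24 h it read 2.45, beside 4.60 and 4.44 on replicates 1 and 3, so it was not high on that array. The second CCN1 probe set gave -0.465 at 24 h and -0.62 at 48 h for ethanol against medium, beside -0.576 and -0.315 for the one used. For DMSO against medium at 24 h it gave 0.105, beside -0.226, so that sign depended on the probe set. The 3 THBS1 probe sets gave -1.44, -2.31 and -1.81 at 24 h and -1.98, -3.11 and -1.52 at 48 h, the last being the one used. On the other 2, ethanol replicates 1 and 2 at 48 h read 6.19 and 4.69, and 4.65 and 2.97. These lay below every medium array of that time, so a lower level there did not rest on replicate 3. The SSH1 probe sets were lower by 1.00 and 0.44 at 24 h, so the size there depends on the probe set. On the second, ethanol replicate 1 at 48 h read 6.73, above medium replicate 3 at 24 h (6.55). A further WIPF2 probe set read 8.32 on ethanol replicate 1 and 8.22 on medium replicate 2 at 48 h. The separation of all ethanol arrays from all others thus held for the probe sets used of both genes, but not for each of their probe sets. CDC42EP3 probe sets disagreed in sign at 48 h, with 0.26 for the one used and -0.21, 0.13 and -0.13 for the others. All 4 had a higher mean with ethanol at 48 h than at 24 h, by 0.46 to 0.86, but only the one used did so without overlap.

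**Figure D4:**
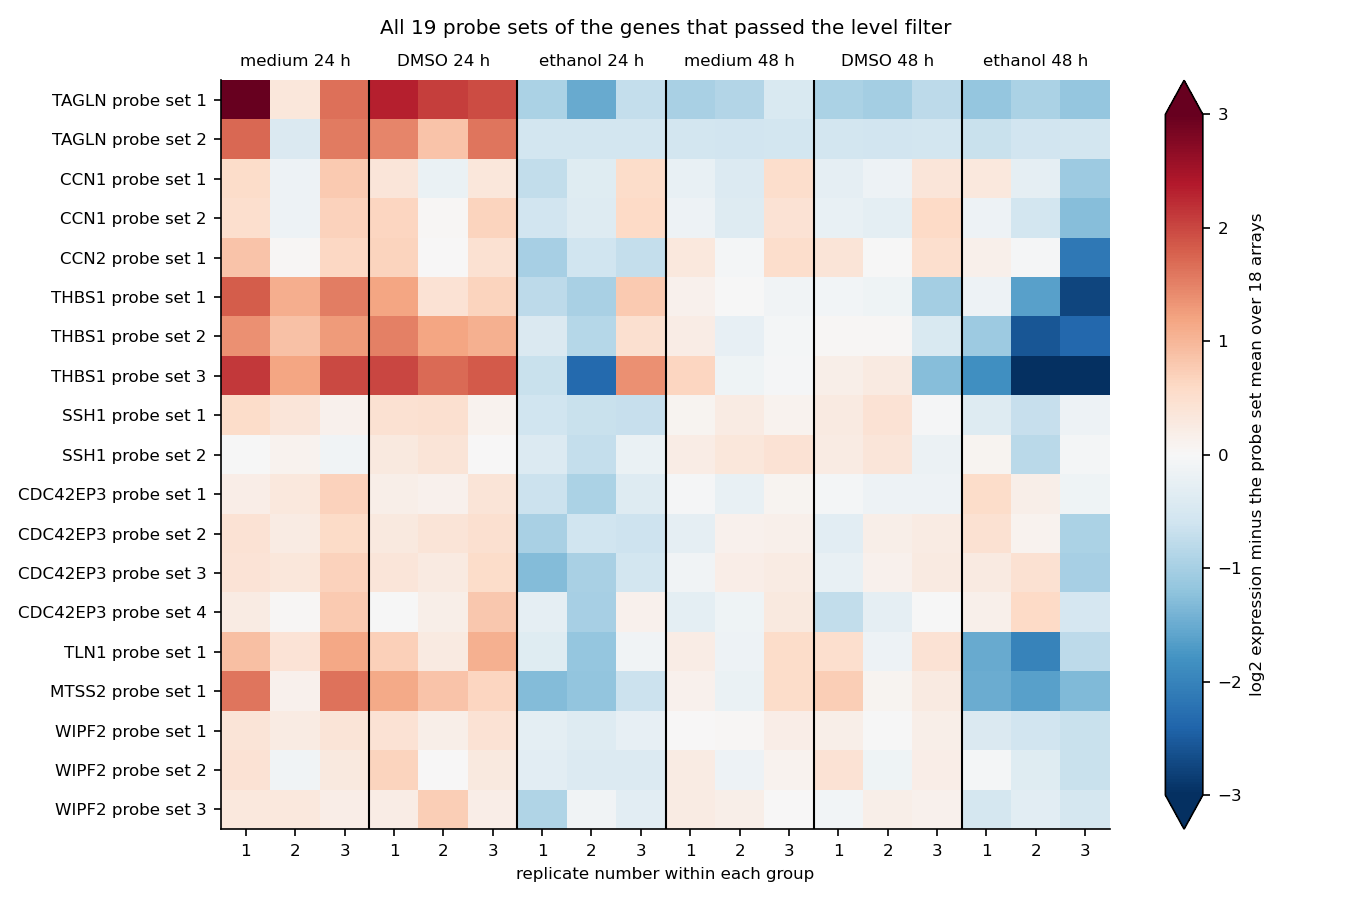
Log2 expression of the 19 probe sets (rows) on 18 arrays (columns, by group and replicate number), as colour for the difference from the mean of each probe set, with red above and blue below it and colours saturating at a difference of 3. Within a gene, probe sets are ordered by mean level. All 19 had a lower mean with ethanol than with medium at 24 h. Both TAGLN rows are high in medium and DMSO at 24 h, except for medium replicate 2 in the second row.

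Correlations between the 9 genes are given as a description, since genes chosen as low on the same ethanol arrays correlate through that choice, and nothing is read from their sign. Pearson's r over the 18 log2 values, which share the 6 groups and the replicate numbers, was above 0 in all 36 pairs, with a median of 0.64, from 0.21 (CCN1 with SSH1) to 0.94 (MTSS2 with WIPF2). After group means were removed the median was 0.34, from -0.50 to 0.75, and 29 of 36 pairs stayed above 0. CCN1 and CCN2 kept r = 0.74 in this way, as did TAGLN and MTSS2, whereas CCN1 and SSH1 turned to -0.47. The genes most like TAGLN over the 18 arrays were TAMM41 (r = 0.87, Spearman's rank correlation = 0.80), CAV1 (0.87 and 0.80), TRIM14 (0.87 and 0.76), ODF2 (0.86 and 0.75) and LYPD1 (0.85 and 0.86). Those most like the mean standardised profile of the 9 genes were SMAD7 (r = 0.94, rank correlation = 0.91), MYADM (0.93 and 0.94), NACC2 (0.93 and 0.93), CHAMP1 (0.92 and 0.91) and NCOA5 (0.91 and 0.92). These are descriptions picked from all tested genes by their likeness.

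Among the other genes of these pathways none passed with ethanol at 24 h, whereas at 48 h some fell and others rose. They were read through 4 lists: MRTF-SRF targets, YAP-TEAD targets, family relatives of the 10 genes, and actin and adhesion partners. Of 78 listed genes 60 were tested. At 24 h, 0 of 60 passed in limma (0.0739% of all genes did), 5 had an unadjusted p under 0.05 (965 of all genes), and 42 had a lower mean with ethanol. The lowest adjusted p was 0.0701, for PARVA, a focal adhesion protein. The replicate numbers paired ethanol with medium at 24 h, and with the block 3 of 60 fell in limma, beside 1.02% of all genes that passed: PARVA (-0.48 ± 0.08, adjusted p = 0.0188), the adhesion scaffold PXN (-0.81 ± 0.17, 0.048) and MYH9 (-0.53 ± 0.11, 0.048).

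At 48 h, 7 of 60 fell and 4 rose with ethanol against medium in limma, beside 15.3% of all genes that passed (7.47% lower and 7.8% higher). The median difference was -0.21, beside -0.04 over all genes. Among 14 MRTF-SRF targets VCL, the adhesion protein vinculin that binds talin, fell by 1.15 ± 0.15 (adjusted p = 0.000304, limma). MYH9, the heavy chain of non-muscle myosin, fell by 0.84 ± 0.25 (adjusted p = 0.0339), and CALD1, the actin-binding caldesmon, rose by 0.67 ± 0.17 (adjusted p = 0.0147). Of 17 YAP-TEAD targets only GADD45A, better known as a stress and DNA damage gene, passed, and it rose by 1.65 ± 0.30 (adjusted p = 0.00256, limma). The median of that list was -0.32, with 15 of 17 means lower, beside 54.3% of all genes. Part of this rested on ethanol replicate 3. Without both of its arrays IGFBP3 went from -0.203 to 0.639, TGFB2 from -0.779 to 0.328, LATS2 from -0.175 to 0.077 and RBMS3 from -0.019 to 0.103. The rest of that list kept its sign, and NT5E, which had not passed with all arrays, fell by 0.97 ± 0.25 there (adjusted p = 0.019, limma). Of 16 partners the severing protein CFL1 (-0.58 ± 0.18) and PARVA (-0.54 ± 0.09) fell, and WASL, a starter of actin branching, rose by 0.39 ± 0.12. Leaving out medium replicate 1, medium replicate 3 or ethanol replicate 2 of 48 h brought the 11 genes to 7, 6 and 7, and leaving out both ethanol replicate 3 arrays gave 19, with all 11 among them. The genes that passed newly without both replicate 3 arrays were all lower with ethanol. They were PDLIM7 (-1.96), SMTN (-1.47), LIMK1 (-1.20), ZYX (-1.19), NT5E, CDC42EP2, SSH3 and ACTB (-0.485).

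Relatives of the 10 genes from the same families form a list of their own. Of 13 tested, 3 fell and 1 rose with ethanol against medium at 48 h, beside 7.47% of all genes lower and 7.8% higher, and 0 passed at 24 h. TAGLN3 fell by 1.31 ± 0.35, CDC42EP4 by 0.90 ± 0.15 and SSH2 by 0.76 ± 0.18, while THBS3 rose by 0.97 ± 0.23 (adjusted p from 0.0017 to 0.0226, limma). TAGLN2, the broadly expressed relative of TAGLN, differed by -0.001 ± 0.36 at 24 h and -0.27 ± 0.36 at 48 h. TLN2 differed by 0.10 ± 0.14 and -0.20 ± 0.14, MTSS1 by 0.08 ± 0.65 and -0.03 ± 0.65, CCN3 by 0.94 ± 0.59 and 0.90 ± 0.59, and THBS2 by 0.53 ± 0.82 and 1.01 ± 0.82. The last 2 rested on ethanol replicate 3: CCN3 was at 12.05 and 11.68 on it and at 9.40 to 9.77 on the other ethanol arrays, and THBS2 at 6.28 or above against 3.04 to 3.30. Without both replicate 3 arrays the differences at 24 h and 48 h were 0.12 ± 0.17 and 0.17 ± 0.17 for CCN3, and -0.54 ± 0.28 and -0.04 ± 0.28 for THBS2. Without them TAGLN2 differed by -0.39 ± 0.28 and -0.63 ± 0.28, TLN2 by 0.009 ± 0.15 and -0.25 ± 0.15, and MTSS1 by 0.68 ± 0.41 and 0.86 ± 0.41. The CDC42EP4 means at 24 h were 8.55 ± 0.07 (ethanol) and 8.49 ± 0.05 (medium), and those at 48 h were 7.69 ± 0.41 and 8.59 ± 0.10. CDC42EP3 itself was low with ethanol at 24 h and not at 48 h. The other relatives tested were SSH3, CDC42EP1, CDC42EP2 and CDC42EP5, with differences of -0.66 to 0.39 at 24 h and -0.56 to 0.14 at 48 h, or -1.11 to 0.07 and -0.63 to 0.24 without both replicate 3 arrays, where SSH3 (adjusted p = 0.0251, limma) and CDC42EP2 (0.0341) passed at 48 h.

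Between DMSO and medium 0 of these 60 pathway genes passed in limma at either time, and 0 had an unadjusted p under 0.05. From 24 h to 48 h in DMSO 0 of 60 passed and 4 had an unadjusted p under 0.05, beside 1105 of all 10832 genes. With the replicate block 2 fell by limma, beside 2.37% of all genes that passed: MYH9 (-0.54 ± 0.11, adjusted p = 0.0344) and TAGLN2 (-0.74 ± 0.16, adjusted p = 0.0362). In the fit of 12 DMSO and medium arrays with the block, added after seeing the data, 9 of 14 MRTF-SRF targets fell and 1 rose, beside 28.5% of all genes that passed, among them MYL9, a myosin light chain (-0.87 ± 0.09, adjusted p = 0.000521, limma). There 4 of 17 YAP-TEAD targets fell and 2 rose, and 6 of 16 partners fell and 1 rose. Of 13 relatives 1 fell and 4 rose. Over all genes 15.0% fell in that fit.

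**Figure D5:**
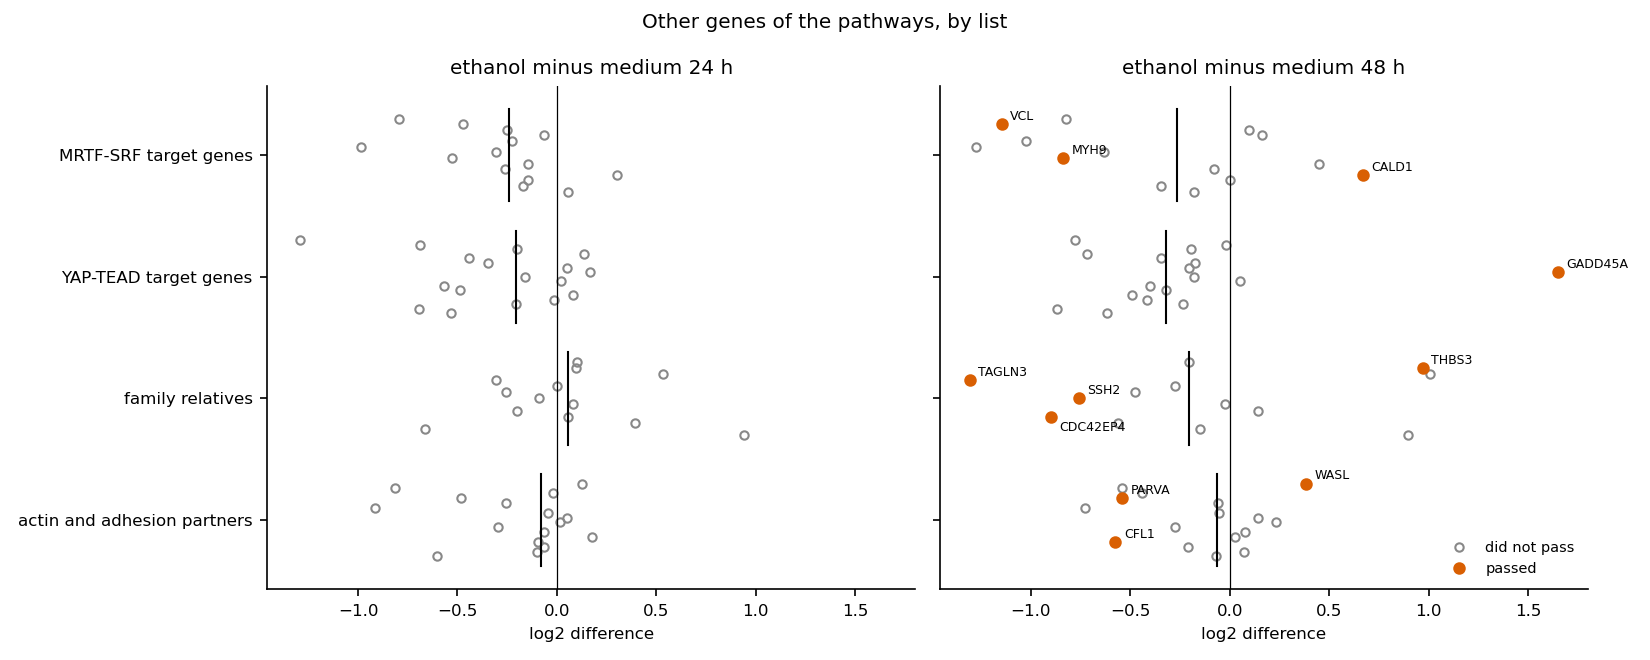
Log2 difference (x axis) between ethanol and medium at 24 h and 48 h of the 60 tested pathway genes, by list (y axis). Each circle is 1 gene, filled where its adjusted p in limma was under 0.05, black bars are list medians, and height within a list only spreads the circles. At 24 h no circle is filled, and at 48 h 7 are filled below 0 and 4 above it.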

How the data were processed

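RNA of 18 HK-2 cultures was measured on Affymetrix HG-U133 Plus 2.0 arrays. The authors deposited GCRMA expression values, per the submitters' processing notes, on what reads as a log2 scale; the GCRMA version was not given in the sources used here, and the log2 scale was taken from the range of the values. GCRMA corrects background, makes arrays alike in distribution and summarises probes, so a shift shared by all genes would not be seen, and low values are pulled together. Array medians ran from 2.86 to 2.95. For arrays there is no read depth, and their number limits the precision.

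Of 54675 probe sets, 62 were controls, 41091 had 1 gene, 1801 had several and 11721 had none listed. Symbols of 41037 came through gene identifiers from RefSeq and 54 from the platform table. Probe sets with 1 gene above 4 on at least 3 arrays (19730) entered, and the highest mean stood for a gene (10832 genes). Genes that stayed low were not tested.

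Differences were fitted with limma 3.58.1 in R 4.3.3, with 6 group means, 12 residual and 2.65 prior degrees of freedom, two-sided, adjusted by Benjamini-Hochberg within each comparison at 0.05. The procedure was tested on simulated data. Same-numbered arrays were checked for pairing by correlating their deviations from group means across genes. The correlations were 0.526 to 0.731 among DMSO and medium groups, 0.225 to 0.48 for ethanol with medium at 24 h, and -0.083 to 0.345 at 48 h. So the numbers were taken as pairs except for ethanol at 48 h, and the basis is the data, not the labels.

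The 10 genes and the gene lists were chosen with earlier results of these data known. Named are the 10 genes, in each list up to 4 largest rises and falls among genes that passed in ethanol against medium or in DMSO over time, all tested relatives, and the 5 genes most like TAGLN and most like the mean profile. A further list of pathway genes is not reported here. Genes named from the fits with the block or without ethanol replicate 3 were chosen after their values were seen. Alternatives changed the block, filter, probe set rule, array weights, arrays in the fit and each replicate left out.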

Additional observations from a re-analysis of the deposited data

Results flagged for a closer look

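CDC42EP4, a relative of CDC42EP3, changed with time in a different way with ethanol than in medium. The difference between both time changes was -0.96 ± 0.22 (adjusted p = 0.0376, limma), and its mean was 8.55 at 24 h and 7.69 at 48 h with ethanol, while it was 8.49 and 8.59 in medium. All 3 ethanol arrays at 48 h, with 7.23 as the lowest, were below the other 15. CDC42EP4 was looked at because it passed with ethanol against medium at 48 h. Those arrays also enter the difference between both time changes, so its p-value is not independent of that choice. None of the other genes looked at in this way passed.

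On the probe set used, CDC42EP3 was higher at 48 h than at 24 h on every ethanol array and lower on every medium array, in opposite directions without overlap. Its other probe sets that passed overlapped between both times with ethanol, with differences of 0.843, 0.461 and 0.6. For the probe set used, the mean time changes of 0.86 and -0.45 differ by 1.32. This difference was not tested, because CDC42EP3 was chosen on its ethanol values.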

How the results depend on the processing

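Of 2331 values for the differences of the 9 genes under the alternatives, 2309 kept their direction and their side of the threshold or moved by less than the spread, 8 moved further and 12 passed the threshold newly. A sign change occurred in 50 of the values, in 19 of the 81 differences, such as TAGLN for DMSO against medium at 24 h (0.41, down to -0.28) and CCN1 for ethanol against medium at 48 h (-0.32, up to 0.06). Those in DMSO from 24 h to 48 h were 2, both of CCN2 (-0.08). CCN2 became 0.066 there without DMSO replicate 1 of 24 h and 0.077 without DMSO replicate 2 of 48 h. With 1 array left out it ranged from -0.26 to 0.077. DMSO against medium was tested too and also held sign changes, among them that of TAGLN. Of the 9 genes 0 passed in DMSO over time, and 1 (TAGLN, which entered only through its high 24 h arrays, so nothing is read from it) did with the replicate block, with array weights, with only the groups compared, without both ethanol replicate 3 arrays and with only the 12 DMSO and medium arrays, the last added after seeing the data. With those 12 arrays and the replicate block, added likewise, 5 passed, of which 4 were other genes. Leaving out 1 array gave 0 to 1, with 1 without medium replicate 1 or 2 of 24 h. Over 84 pathway genes, with a further list of 24 that is not described here, those that passed for ethanol against medium at 24 h went from 0 to 4 with the replicate block, 15 with array weights and 1 with no filter. At 48 h the 16 became 26 with the replicate block, where the numbers did not pair the arrays, 1 with only the groups compared, 9 with the mean of the probe sets and 8 to 20 with 1 array left out. In DMSO over time the 0 pathway genes became 2 with the replicate block and 39 with the 12 arrays and the block. DMSO against medium gave 0 of 9 and 0 of 84 in all 30 alternatives. Over all genes the number that passed for ethanol against medium was 8 at 24 h, from 0 to 737, and 1654 at 48 h, from 114 to 2811, and for DMSO over time it was 0, up to 3083. MTSS2 had no value under the stricter filter. VCL passed at 48 h in all 28 alternatives, while CFL1 lost the call in 14, WASL in 10, MYH9 and TAGLN3 in 7, CALD1 in 4, SSH2 in 2, and GADD45A, PARVA, THBS3 and CDC42EP4 in 1 each. Where the cause of a shift is not given by fewer arrays or genes, the cause was not tested. Values of TAGLN and MTSS2 under 4 are near background, which limits their sizes, and 3 arrays per group limit the precision.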

Other observations

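Replicate 2 was low for several of these genes across groups. Among the 4 DMSO and medium groups it was the lowest array in 4 for CCN2 and TLN1, in 3 for CCN1, CDC42EP3, MTSS2 and WIPF2, in 2 for TAGLN and THBS1, and in 0 for SSH1. The mean standardised level of the 9 genes was 0.42 on medium replicate 2 at 24 h, beside 1.27 on replicate 1, and 0.49 on DMSO replicate 2, beside 0.99 and 0.82. At 48 h it was -0.19 in medium and -0.07 with DMSO on replicate 2. With ethanol it was -1.07, -1.21 and -0.40 at 24 h and -0.43, -1.02 and -1.45 at 48 h for replicates 1, 2 and 3.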
